A study of Mus musculus with 45 samples.

Results

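Chemokines and their receptors were examined in primary tumors, implanted scaffolds, spleens and lungs of mice with breast tumors that differ in metastatic potential. The members were all gene symbols that carry a chemokine ligand name (Ccl, Cxcl, Xcl, Cx3cl), a receptor name (Ccr, Cxcr, Xcr, Cx3cr) or an atypical receptor name (Ackr), together with Ppbp and Pf4, the platelet chemokines that keep older names. This rule found 64 of the 55367 gene symbols in the count table, of which 42 were ligands (25 of the CC kind, 15 of the CXC kind and 2 others), 18 were receptors and 4 were atypical receptors. The rule reads gene names and no measured value, though it was chosen with earlier results of these data known. Ccl21b, Ccl21c, Ccl21d, Ccl26 and Ccl27b had no counts, and with Ccl19, Ccl21a and Ccr8 a total of 8 members had 10 counts or fewer over all libraries and were tested nowhere. Ccl21a to Ccl21d, and Ccl27a and Ccl27b, are near-identical copies, so their low or absent counts are uncertain.

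All animals were female Balb/c mice. A porous polycaprolactone scaffold, which becomes filled with host tissue under the skin, was implanted 2 weeks before tumor cells were injected into a mammary fat pad, and tissues were taken on day 14 after injection. The tumor lines 67NR, 4T07 and 4T1 derive from a single mouse mammary tumor: 67NR is described as forming primary tumors only, 4T07 as spreading without lasting metastases, and 4T1 as metastasizing. Each of the 15 groups had 3 libraries: scaffolds, lungs and spleens of tumor-free control mice and of mice carrying 1 of the 3 lines, and the primary tumors of the 3 lines. A tumor line is a cultured cell line, and every group therefore describes a single line, day and strain. Levels are counts scaled to a library total of 1000000 (CPM) from libraries that tag the 3′ end of transcripts. A member was called where the edgeR adjusted p was below 0.05 (tumors and control tissues) or 0.10 (the other comparisons, within an organ or the scaffold), and the fold change exceeded 2.

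Chemokines are small secreted proteins that guide leukocytes along concentration gradients by binding receptors coupled to inhibitory G proteins. CXC ligands with an ELR motif act on Cxcr2 and draw neutrophils, the ligands induced by interferon act on Cxcr3 and draw T cells and NK cells, and many CC ligands draw monocytes, eosinophils or dendritic cells. Atypical receptors bind chemokines without G protein signalling and clear or transport them. In mammary tumors the family is best known for the recruitment of neutrophils and monocytes into the tumor and into distant organs.

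Many members lie side by side in the genome. In the RefSeq annotation, runs of members with no other protein-coding gene between them were found for Cxcl5, Ppbp, Pf4, Cxcl3, Cxcl15, Cxcl1 and Cxcl2 on chromosome 5, for Ccl2, Ccl7, Ccl11, Ccl12, Ccl8 and Ccl1 on chromosome 11, and for Ccl5, Ccl9, Ccl6, Ccl3 and Ccl4 elsewhere on chromosome 11. Receptors formed runs too, such as Cxcr2 with Cxcr1 on chromosome 1. Among the members whose promoters were listed, Cxcl1, Cxcl2 and Cxcl3 held the same stretch of 11 bases, made of overlapping matches to an NF-kB-type pattern, and their upstream sequences are shown because Cxcl2 and Cxcl3 had the largest differences among the called members between tumor lines. Each line gives the 250 bases before the start of the gene on its own strand, from RefSeq on build GRCm38.p6, with the shared stretch in capitals.

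Cxcl1: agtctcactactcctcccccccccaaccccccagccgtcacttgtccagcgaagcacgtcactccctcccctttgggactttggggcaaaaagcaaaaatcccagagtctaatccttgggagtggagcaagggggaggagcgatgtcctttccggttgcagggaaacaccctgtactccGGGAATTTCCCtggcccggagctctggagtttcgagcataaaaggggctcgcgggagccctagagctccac
Cxcl2: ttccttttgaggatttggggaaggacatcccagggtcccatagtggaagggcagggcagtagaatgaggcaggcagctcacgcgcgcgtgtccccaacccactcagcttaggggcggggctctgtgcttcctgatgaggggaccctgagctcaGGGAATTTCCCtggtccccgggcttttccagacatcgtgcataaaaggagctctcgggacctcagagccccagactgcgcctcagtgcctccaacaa
Cxcl3: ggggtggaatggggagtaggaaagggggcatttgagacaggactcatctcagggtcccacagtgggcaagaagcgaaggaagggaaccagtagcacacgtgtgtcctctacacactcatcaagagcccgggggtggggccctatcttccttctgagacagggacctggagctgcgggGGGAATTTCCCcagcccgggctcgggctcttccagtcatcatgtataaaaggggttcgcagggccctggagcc

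The 3 upstream sequences lie on the plus strand at chr5:90890995-90891244 for Cxcl1, chr5:90903649-90903898 for Cxcl2 and chr5:90785851-90786100 for Cxcl3. The stretch GGGAATTTCCC, read on the other strand as GGGAAATTCCC, covered bases 71 to 61 before the start of Cxcl1, 97 to 87 before that of Cxcl2 and 73 to 63 before that of Cxcl3. On either strand it was found in these 3 members and in 14 of 32851 listed promoters in all (0.0426%). Its first 10 bases were also in the promoter of Ccr3 (28 promoters in all, 0.0852%), and its last 10 bases were also in that of Cxcl10 (32 promoters in all, 0.0974%). The stretch was picked from these same promoters, by joining the overlapping matches that the most members shared. That several members share it was thus set by the choice, and its share of all promoters is no test of this. The wider NF-kB-type pattern, GGG, any 5 bases and CC, was common: on either strand it was in 27 of the 55 promoter entries of members (49.1%) and in 45.8% of all promoters. An interferon-gamma-type pattern, TTC, any 3 bases and GAA, was in 3 of the 55 entries (5.45%) against 7.02% of all, and an ISRE-type pattern, TTTC, any 2 bases and TTTC, was in 3 of the 55 (5.45%) against 2.98% of all. A match of letters is a description of the sequence and not a measurement of binding. Of the 64 members, 48 had an entry.

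The 45 libraries held 3491888 to 8175380 counts each (median 5149589), so that a level of 1 CPM rested on only a few counts. The study describes the replicates of a condition as separate mice, which the labels do not state. P-values rest on the spread between libraries within groups, estimated over all groups of a fit and with information shared between genes. Several libraries stood apart from their label before any chemokine was considered. The 3 libraries labelled 4T07 lung had 14.6, 13.8 and 11.1 CPM of Tlx1, a transcription factor of the spleen stroma, whereas the 9 other lung libraries lay between 0.324 and 1.72 CPM and the 4T07 spleens had 16.7, 11.9 and 16.3 CPM. Of their markers, all 4 for spleen stroma were detected, with a summed level of 39.1 to 60.5 CPM against 2.10 to 5.06 CPM in control lungs. All 6 markers of exocrine pancreas were detected too, at 236.5 to 312.8 CPM against 4.86 to 5.77 CPM, and the 5 lung epithelial markers summed to 5693 to 14290 CPM against 34910 to 37030 CPM. Every result on lungs of 4T07 mice is therefore given for the libraries labelled 4T07 lung.

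**Figure D1:**
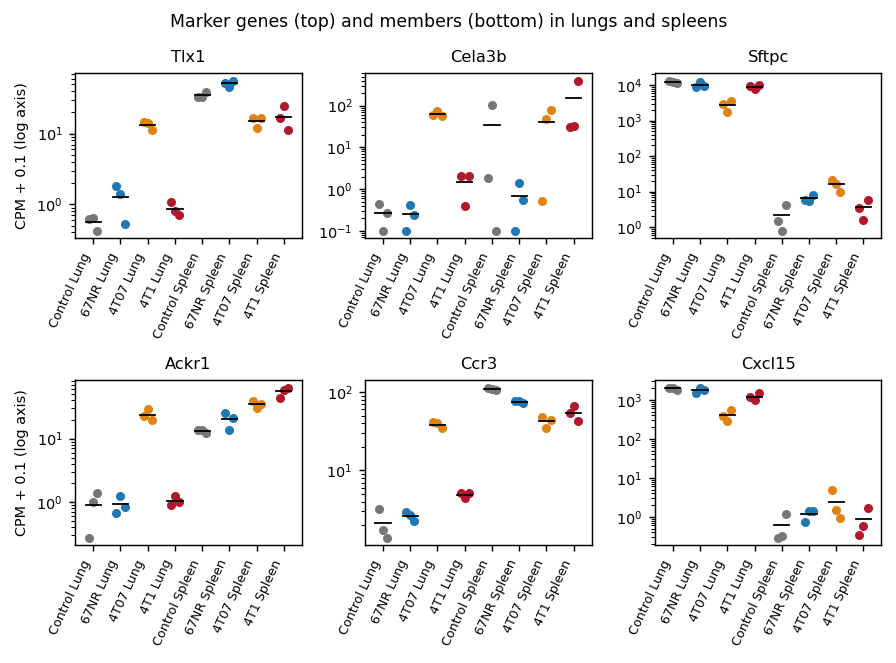
CPM + 0.1 on a log axis in each lung and spleen library of the 4 mouse groups, with 3 points per group, for a spleen stroma gene (Tlx1), a pancreas gene (Cela3b) and a lung epithelial gene (Sftpc) in the top row and for Ackr1, Ccr3 and Cxcl15 in the bottom row. The libraries labelled 4T07 lung lie away from the other lungs in all 6 panels, with Tlx1 at 11.1 to 14.6 CPM.

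Other libraries also stood apart in markers of other tissues or of immune cells. Whether these came from carried-over tissue or from cells within the sampled tissue was not tested. Replicate 1 of the 4T07 tumors and replicate 1 of the 4T07 scaffolds had 4.42 and 4.65 CPM of Tlx1, with 160.0 and 289.7 CPM of the eosinophil granule gene Prg2, and replicate 3 of the 4T07 tumors had the group's highest sum of the 6 B cell markers, 176.4 CPM. Pancreas markers summed to 419.9 CPM in 1 control spleen, and to 131.1 CPM or more in 2 of the 4T07 spleens and in all 4T1 spleens. Lung epithelial markers reached 381.6 CPM in 1 of the 67NR tumors. In replicate 1 of the control, 67NR, 4T07 and 4T1 scaffolds, the highest of each group, they reached 276.9, 419.4, 251.2 and 118.9 CPM. Replicate 2 of the control scaffolds had 843.2 CPM of the neutrophil gene S100a8 against 273.5 and 161.0 CPM in the other two. The range of the counts of called members with 1 library left out at a time is given beside the counts or in the closing section, and pancreas markers, present in all 4T1 spleens, could not be set aside in this way.

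In control mice the summed ligand level was highest in scaffolds and the summed receptor level in spleens. Summed over the 42 ligands, the median library had 4055 CPM in control scaffolds, 3224 CPM in control lungs and 1393 CPM in control spleens, and over all receptors it had 538.9, 402.9 and 716.0 CPM in the same order, with no overlap between these tissues in ligands and none between spleens and the others in receptors. In primary tumors the ligand sum was 2438 to 2575 CPM for 67NR, 3730 to 4208 CPM for 4T07 and 2280 to 2513 CPM for 4T1, so the 4T07 tumors did not overlap with either other line. The receptor sum was 357.4 to 510.4 CPM in 67NR tumors, 600.7 to 664.6 CPM in 4T07 tumors and 650.3 to 712.4 CPM in 4T1 tumors.

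**Figure D2:**
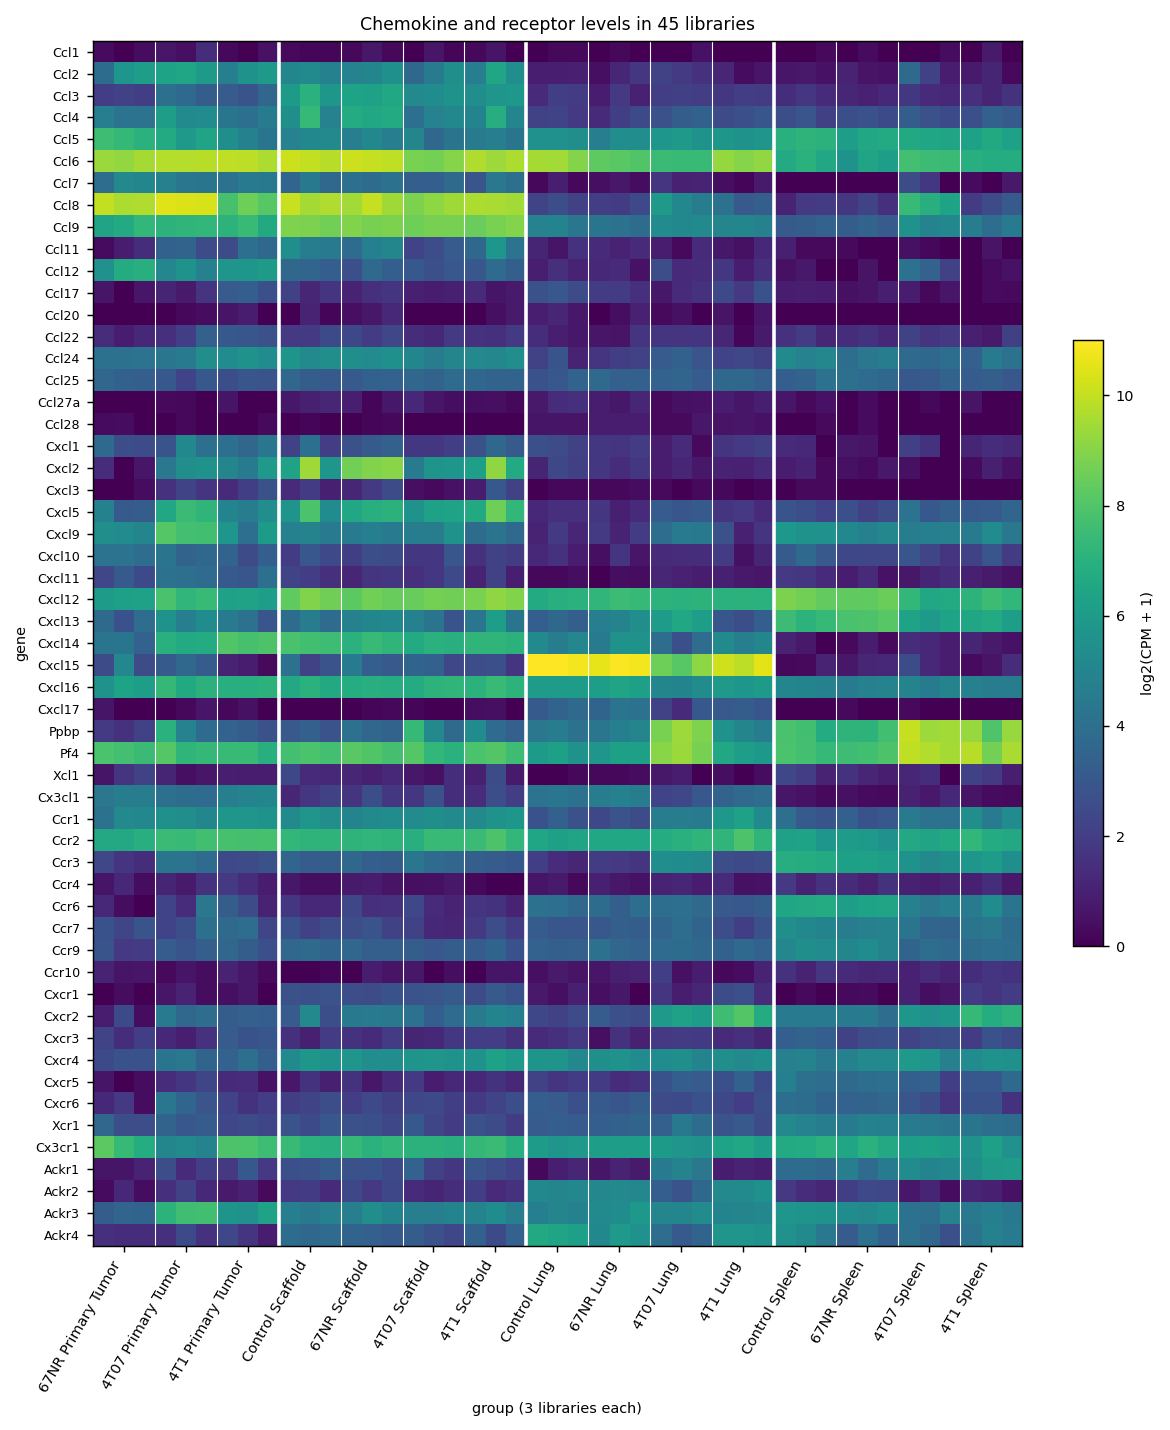
Heat map of log2(CPM + 1) for members with more than 10 counts in all (rows, by role; 1 member is not shown) in the 45 libraries (columns, by tissue and group), where the color scale gives the level. Each tissue has its own set of high members, and within a group the 3 libraries mostly share one pattern.

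In the control mice, each tissue had characteristic chemokines. Of 55 members tested, 28 were higher and 8 lower in control scaffolds than in control lungs, where 13.3% and 16.7% of all genes were called. Against control spleens, 23 were higher and 14 lower in scaffolds, beside 15.6% and 15.9% of all genes, and in lungs 16 were higher and 21 lower than in spleens, beside 19.1% and 17.7% of all genes. The median log2 fold change of the members was 1.03 for scaffold against lung, where that of all genes was 0.00, 0.58 for scaffold against spleen (all genes −0.06) and −0.64 for lung against spleen (all genes −0.05). The comparisons share the same control libraries.

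The control lung was marked by Cxcl15, known as lungkine and made by bronchial epithelium, with 2061, 2021 and 1796 CPM. Scaffolds had 16.8, 3.48 and 5.98 CPM and spleens 0.194, 0.231 and 1.08 CPM, so the groups did not overlap (log2 fold change −7.62 ± 0.47, edgeR adjusted p = 4.8e-09 for scaffold against lung). The scaffold with the highest Cxcl15 was the one with the highest Sftpc, 103.0 CPM against 22.2 CPM in each of the others, and without it the difference was −8.51 on the log2 scale. Cxcl17, a mucosal chemokine, had 7.67, 10.3 and 13.1 CPM in lungs and no counts in scaffolds or spleens, so the lung level was at least 60.6-fold that of scaffolds and at least 49.1-fold that of spleens, against a floor of 3 counts in the group. Cx3cl1, the membrane-bound fractalkine of endothelium and epithelium, was 17.6 ± 1.15 CPM in lungs, 2.37 ± 1.10 CPM in scaffolds and 0.420 ± 0.187 CPM in spleens (mean ± SD, n = 3). The scavenging receptor Ackr2 was likewise highest in the lung, at 33.2 ± 2.06 CPM against 2.31 ± 0.662 CPM in scaffolds and 1.81 ± 0.638 CPM in spleens.

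Ccl8, Ccl2 and Cxcl2 were higher in control scaffolds than in control lungs, whereas Cxcl1 was not called between them and Ppbp was lower in scaffolds (log2 fold change −1.19). Ccl8, a ligand that draws monocytes and T cells, had 1085, 725 and 814 CPM in scaffolds and 3.84, 5.23 and 3.40 CPM in lungs (log2 fold change 7.94 ± 0.30, edgeR adjusted p = 7.16e-11). The monocyte chemoattractant Ccl2 had 32.5, 37.2 and 27.2 CPM against 0.872, 0.902 and 0.971 CPM (log2 fold change 5.32 ± 0.27, edgeR adjusted p = 7.98e-10). Ccl7, encoded beside Ccl2, had 11.1, 20.7 and 11.8 CPM in scaffolds and no counts in spleens, at least 69.9-fold more. These 3 genes lie in the same run on chromosome 11, with Ccl11 and Ccl12 between Ccl7 and Ccl8. All of these were called higher in scaffolds than in lungs and than in spleens, with no overlap of libraries. Cxcl2, a Cxcr2 ligand made by activated macrophages and neutrophils, had 78.9, 697 and 53.4 CPM in scaffolds and 1.22, 4.15 and 3.24 CPM in lungs (log2 fold change 6.78 ± 0.90, edgeR adjusted p = 1.83e-05). Replicate 2 was the high library, and without it the scaffold-to-lung difference in Cxcl2 fell from 6.78 to 4.76 and that in Cxcl5 from 6.23 to 4.97, with both calls kept. Cxcl14, a chemokine of fibroblasts and epithelium, had 230.1, 201 and 190.3 CPM in scaffolds and 1.17, 0.692 and 0 CPM in spleens.

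Cxcl13 and the lymphocyte receptors Ccr6, Cxcr5 and Ccr7 were higher in control spleens than in control scaffolds. Cxcl13, which guides B cells into follicles, had 187, 135 and 165 CPM against 13.6, 24.1 and 13.4 CPM in scaffolds (log2 fold change −3.08 ± 0.23, edgeR adjusted p = 3.91e-08). Ccr6, carried by B cells and some T cells, had 89.9, 97.8 and 107 CPM against 2.31, 1.43 and 1.42 CPM (log2 fold change −5.68 ± 0.23, edgeR adjusted p = 1.81e-10), and its group did not overlap with the scaffolds. The follicle homing receptor Cxcr5 and the lymph node homing receptor Ccr7 averaged 18.5 and 35.5 CPM in spleens against 1.21 and 4.69 CPM in scaffolds. Summed B cell markers were 1225 to 1677 CPM in these spleens and 17.6 to 25.4 CPM in the scaffolds, and in bulk tissue fewer cells of a type and less RNA per cell cannot be told apart. Ppbp, released by platelets, had 231, 201 and 109 CPM in spleens and 7.34, 9.50 and 5.98 CPM in scaffolds (log2 fold change −4.39 ± 0.30, edgeR adjusted p = 1.64e-08).

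In the primary tumors, Cxcl2 and Cxcl3, ligands of the neutrophil receptor Cxcr2, had the largest fold changes against 67NR of the called members with a mean of at least 2 CPM. Of 52 members tested, 21 were higher and 4 lower in 4T07 than in 67NR tumors, beside 17.2% and 11.8% of all genes, and against the same 67NR tumors 12 were higher and 4 lower in 4T1, beside 11.6% and 9.07%. Between 4T1 and 4T07 tumors, 5 were higher and 12 lower in 4T1, beside 3.82% and 4.79%. The median log2 fold change of the members was 0.92 for 4T07 against 67NR (all genes 0.16), 0.67 for 4T1 against 67NR (all genes 0.09) and −0.27 for 4T1 against 4T07 (all genes −0.05). Each pair of these comparisons shares a tumor line. Without replicate 1 of the 4T07 tumors the counts were 19 higher and 6 lower for 4T07 against 67NR, and 5 higher and 9 lower for 4T1 against 4T07. Leaving out 1 library at a time gave 21 to 25 calls for 4T07 and 13 to 21 for 4T1 against 67NR.

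Cxcl2 had 1.61, 0 and 0.565 CPM in 67NR tumors, 20.3, 42.1 and 48.8 CPM in 4T07 tumors and 30.7, 21.5 and 60.2 CPM in 4T1 tumors. The 67NR libraries lay below all others (log2 fold change 5.36 ± 0.63, edgeR adjusted p = 9.83e-06 for 4T07, and log2 fold change 5.43 ± 0.63, edgeR adjusted p = 9.85e-06 for 4T1). Its 67NR signal rested largely on replicate 1, and without that library the differences were 6.64 and 6.71. Cxcl3, whose promoter holds the same stretch, had 1 count over the 67NR tumors against 39 in 4T07 and 49 in 4T1, ratios of 30.1 (exact 95% counting interval 5.10 to 1220) and 35.5 (6.07 to 1430). Cxcl1, the third gene with that stretch, was 7.58 ± 4.38, 18.8 ± 14.3 and 15.1 ± 3.65 CPM in 67NR, 4T07 and 4T1 tumors and was not called (log2 fold change 1.08 ± 0.49, edgeR adjusted p = 0.0911 for 4T07 against 67NR).

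Cxcl5, another Cxcr2 ligand, which is made by epithelium and stroma, was higher in 4T07 than in either other line. It had 95.1, 181 and 146 CPM in 4T07 tumors, 27.1, 7.55 and 8.47 CPM in 67NR tumors and 29.8, 23.6 and 41.0 CPM in 4T1 tumors (log2 fold change 3.05 ± 0.38, edgeR adjusted p = 1.77e-05 against 67NR, and log2 fold change −2.11 ± 0.35, edgeR adjusted p = 0.000904 for 4T1 against 4T07). Without replicate 1 of the 67NR tumors the first difference was 3.85.

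Ppbp, a Cxcr2 ligand stored in platelets, had 2.69, 1.96 and 3.39 CPM in 67NR, 130, 28.7 and 13.6 CPM in 4T07 and 10.1, 8.40 and 5.61 CPM in 4T1 tumors (log2 fold change 4.16 ± 0.69, edgeR adjusted p = 0.000214 for 4T07 against 67NR). Replicate 1 of the 4T07 tumors, whose 8 platelet and megakaryocyte markers summed to 66.6 CPM against 30.5 and 31.8 CPM in the other two, set much of this: without it the difference was 2.69 against 67NR, and for 4T1 against 4T07 it went from −2.77 to −1.35 (edgeR adjusted p = 0.0261). The part that platelets had in this result was not tested. The receptor Cxcr2 averaged 1.86, 16.3 and 8.89 CPM in 67NR, 4T07 and 4T1 tumors and was called in both lines against 67NR (log2 fold change 2.87 ± 0.53, edgeR adjusted p = 0.000497 for 4T07, and log2 fold change 2.04 ± 0.54, edgeR adjusted p = 0.00932 for 4T1). Of the 10 neutrophil markers, 9 were higher in 4T07 and 3 in 4T1 than in 67NR tumors, with sums of 42.6 to 401.2 CPM in 67NR, 1115 to 5403 CPM in 4T07 and 660.2 to 1051 CPM in 4T1 tumors.

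**Figure D3:**
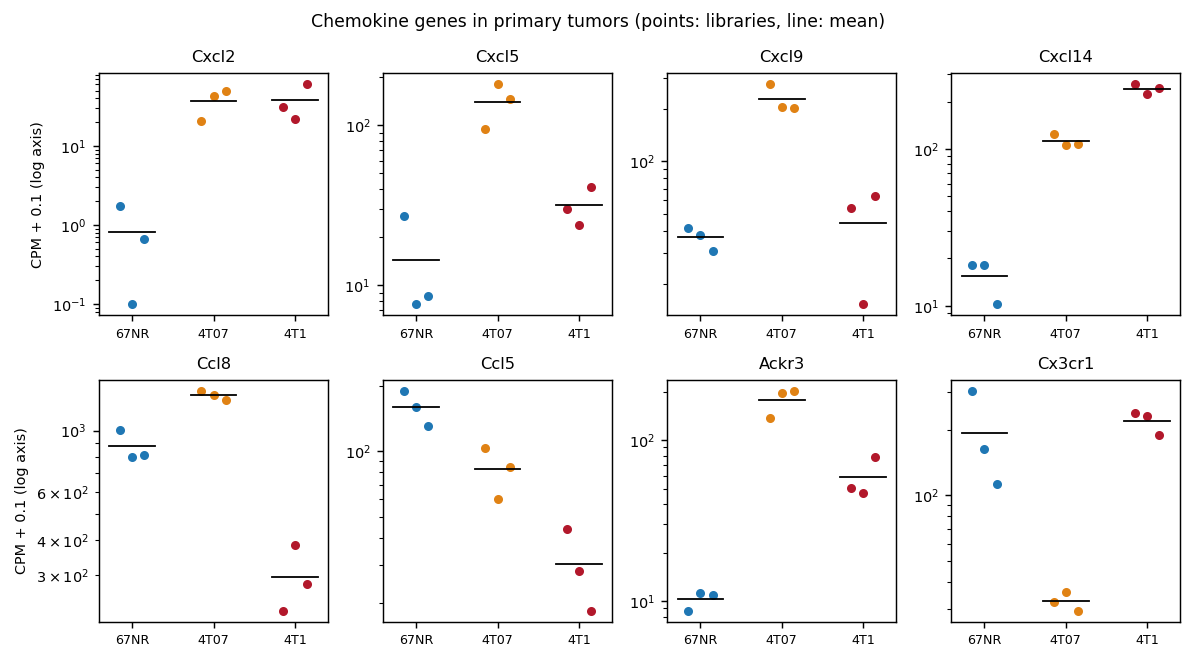
CPM + 0.1 on a log axis in each primary tumor library, 3 points per line, for Cxcl2, Cxcl5, Cxcl9, Cxcl14, Ccl8, Ccl5, Ackr3 and Cx3cr1. Cxcl2 and Cxcl14 lie higher in both 4T07 and 4T1 than in 67NR, Cxcl5 and Cxcl9 lie highest in 4T07, and Cx3cr1 lies lowest in 4T07.

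Among the ligands of Cxcr3, Cxcl9 was higher in 4T07 than in both other lines. This chemokine, induced by interferon-gamma, had 277, 206 and 203 CPM in 4T07 tumors, 41.7, 38.1 and 30.8 CPM in 67NR tumors and 53.8, 15.2 and 63.5 CPM in 4T1 tumors, with no overlap between 4T07 and the other lines (log2 fold change 2.38 ± 0.36, edgeR adjusted p = 8.8e-05 against 67NR, and log2 fold change −2.31 ± 0.35, edgeR adjusted p = 0.000404 for 4T1 against 4T07). Cxcl11 was also called in 4T07 against 67NR, with means of 15.1 and 5.37 CPM. Cxcl10, of the same family, averaged 16.1, 13.5 and 8.00 CPM in 67NR, 4T07 and 4T1, and was lower in 4T1 than in 67NR tumors (log2 fold change −1.20 ± 0.30, edgeR adjusted p = 0.00702), a call lost without replicate 2 of the 4T1 tumors, where the difference was −0.93. The receptor Cxcr3 itself was higher in 4T1 than in 4T07 tumors, with 3.76, 1.68 and 3.11 CPM in 67NR, 1.41, 0.907 and 1.98 CPM in 4T07 and 8.05, 5.74 and 6.69 CPM in 4T1 tumors (log2 fold change 2.34 ± 0.41, edgeR adjusted p = 0.00114 for 4T1 against 4T07). Its lower level in 4T07 than in 67NR (log2 fold change −1.27 ± 0.45, edgeR adjusted p = 0.0343) was lost when any 1 of 4 libraries was left out and in DESeq2, where the adjusted p was 0.0544. Cxcr6, the receptor of Cxcl16 on effector T cells, had 19.1, 11.1 and 6.49 CPM in 4T07 and 3.66, 2.05 and 3.02 CPM in 4T1 tumors (log2 fold change −2.01 ± 0.46, edgeR adjusted p = 0.00775), a call lost without replicate 1 of the 4T07 tumors (difference −1.54, edgeR adjusted p = 0.0594).

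Among CC ligands, 4T1 tumors had less Ccl8 and Ccl5. Ccl8 had 1009, 803 and 819 CPM in 67NR, 1393, 1350 and 1291 CPM in 4T07 and 222, 385 and 278 CPM in 4T1 tumors (log2 fold change −1.77 ± 0.20, edgeR adjusted p = 6.01e-06 for 4T1 against 67NR, and log2 fold change −2.14 ± 0.20, edgeR adjusted p = 4.59e-06 against 4T07). Ccl5, a ligand made by T cells and NK cells, had 189, 160 and 131 CPM in 67NR, 104, 60.2 and 84.4 CPM in 4T07 and 43.9, 27.9 and 18.4 CPM in 4T1 tumors, so it fell from line to line without overlap (log2 fold change −2.60 ± 0.28, edgeR adjusted p = 3.95e-06 for 4T1 against 67NR). The 6 NK cell markers summed to 178.8 to 189.5 CPM in 67NR, 77.9 to 86.9 CPM in 4T07 and 40.4 to 50.5 CPM in 4T1 tumors, and their part in the Ccl5 levels was not tested. Ccl12, a mouse ligand of Ccr2, had 47.0, 109 and 122 CPM in 67NR and 33.1, 47.7 and 27.4 CPM in 4T07 tumors (log2 fold change −1.61 ± 0.30, edgeR adjusted p = 0.000548). The ligands of Ccr2 did not all move so: Ccl2 averaged 45.7, 77.5 and 44.4 CPM, and Ccl7 27.0, 21.2 and 19.5 CPM, in 67NR, 4T07 and 4T1 tumors, with neither called. Ccl3 and Ccl4, inflammatory ligands made by macrophages, were both higher in 4T07 than in 67NR tumors (log2 fold change 1.71 ± 0.34, edgeR adjusted p = 0.000935 for Ccl3, and log2 fold change 1.06 ± 0.26, edgeR adjusted p = 0.00415 for Ccl4).

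Ccl17 and Ccl22, the Ccr4 ligands made mainly by dendritic cells, and Ccl11, a ligand of the eosinophil receptor Ccr3, were higher in 4T1 than in 67NR tumors. Ccl17 had 0.538, 0 and 0.565 CPM in 67NR, 1.20, 0.726 and 2.26 CPM in 4T07 and 7.86, 8.81 and 5.40 CPM in 4T1 tumors (log2 fold change 4.03 ± 0.61, edgeR adjusted p = 0.000124). Ccl22 averaged 1.29, 4.73 and 6.50 CPM in the same order and was called in both lines against 67NR. Ccl11 had 0.269, 0.839 and 1.69 CPM in 67NR, 9.83, 10.3 and 4.80 CPM in 4T07 and 4.94, 15.4 and 11.9 CPM in 4T1 tumors (log2 fold change 3.29 ± 0.57, edgeR adjusted p = 0.000422 for 4T1 against 67NR). Without replicate 3 of the 67NR tumors its difference in 4T1 was 3.98. Of the 6 dendritic cell markers, 2 were higher in each line than in 67NR tumors, and the sums were 23.4 to 30.4, 61.3 to 77.7 and 42.7 to 57.4 CPM in 67NR, 4T07 and 4T1 tumors.

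Cxcl14 had 18.0, 18.2 and 10.2 CPM in 67NR, 124, 106 and 107 CPM in 4T07 and 258, 223 and 244 CPM in 4T1 tumors, an ordering without overlap (log2 fold change 3.77 ± 0.21, edgeR adjusted p = 5.87e-09 for 4T1 against 67NR, and log2 fold change 1.15 ± 0.18, edgeR adjusted p = 0.000605 for 4T1 against 4T07). The atypical receptor Ackr3, which takes up Cxcl12, had 8.60, 11.2 and 10.7 CPM in 67NR, 137, 195 and 202 CPM in 4T07 and 50.3, 46.5 and 78.8 CPM in 4T1 tumors (log2 fold change 3.88 ± 0.26, edgeR adjusted p = 5.87e-08 for 4T07 against 67NR). Cxcl12 itself, the stromal ligand of Cxcr4, averaged 72.1, 182 and 75.9 CPM, and was higher in 4T07 than in both 67NR (log2 fold change 1.08 ± 0.18, edgeR adjusted p = 0.000188) and 4T1. These values stood beside a difference in epithelial and stromal content: the 6 mammary epithelial markers summed to 18.4 to 30.2 CPM in 67NR, 165.2 to 226.2 CPM in 4T07 and 987.7 to 1102 CPM in 4T1 tumors, and the 5 fibroblast markers to 617.6 to 823.2, 3527 to 5424 and 4222 to 7054 CPM. The part of either cell type in the chemokine levels was not tested.

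Among tumor receptors, Cx3cr1, the fractalkine receptor of monocytes and macrophages, had 302, 164 and 113 CPM in 67NR, 32.3, 35.9 and 29.4 CPM in 4T07 and 239, 232 and 189.7 CPM in 4T1 tumors (log2 fold change −2.80 ± 0.27, edgeR adjusted p = 1.54e-06 for 4T07 against 67NR, and log2 fold change 2.81 ± 0.27, edgeR adjusted p = 7.22e-06 for 4T1 against 4T07). The 4T07 libraries lay below both other lines. The 8 macrophage markers summed to 2470 to 2847 CPM in 67NR, 2411 to 3153 CPM in 4T07 and 1938 to 2319 CPM in 4T1 tumors, and their part in the Cx3cr1 levels was not tested. Cx3cl1, its ligand, had 15.9, 13.6 and 13.3 CPM in 4T07 and 25.6, 29.1 and 31.7 CPM in 4T1 tumors (log2 fold change 1.06 ± 0.20, edgeR adjusted p = 0.00227). The monocyte receptor Ccr2 averaged 105, 184 and 221 CPM in 67NR, 4T07 and 4T1 and was not called in any pair. Ccr6 had 1.34, 0.280 and 0 CPM in 67NR and 3.61, 1.63 and 19.5 CPM in 4T07 tumors (log2 fold change 3.54 ± 1.09, edgeR adjusted p = 0.0168), a call that rested on replicate 3 of the 4T07 tumors, the library with the most B cell markers. Without it the difference was 1.93 (edgeR adjusted p = 0.131), it was also lost without replicate 2 or 3 of the 67NR tumors, and without replicate 1 of the 67NR tumors the difference was 5.30. Cxcl15 had 4.84, 32.7 and 4.80 CPM in 67NR, 7.63, 11.6 and 8.18 CPM in 4T07 and 1.10, 0.820 and 0.216 CPM in 4T1 tumors, with the lung epithelial markers at 54.8 to 381.6, 14.1 to 100.7 and 4.75 to 12.1 CPM. Replicate 2 of the 67NR tumors was highest for both, and without it the difference between 4T1 and 67NR went from −4.45 to −2.85. The part of lung RNA in the Cxcl15 levels was not tested.

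Factors known to induce chemokines were called in the tumors as well. Of the 25 genes listed, 23 were tested. In 4T07 against 67NR tumors 12 were higher and 2 lower, beside 17.2% and 11.8% of all genes. In 4T1 against 67NR tumors 6 were higher and 1 lower, beside 11.6% and 9.07%. Between 4T1 and 4T07 tumors, 1 was higher and 6 lower in 4T1, beside 3.82% and 4.79%. The median log2 fold changes of these factors were 1.26, 0.49 and −0.48 in the same order. Il1b, an inflammatory cytokine, averaged 19.8, 136.6 and 197.6 CPM in 67NR, 4T07 and 4T1 tumors. Irf1, a transcription factor of the interferon response, averaged 890.6 CPM in 4T07 tumors against 372.8 CPM in 4T1 tumors, and was lower in 4T1 by edgeR (adjusted p = 0.000559). Of 30 genes of receptor signalling and its regulators, 7 were higher and 1 lower in 4T07 than in 67NR. The counts were 5 higher and 1 lower in 4T1 than in 67NR, and 1 higher and 3 lower in 4T1 than in 4T07. These counts stand beside the same shares of all genes.

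In the spleens, the neutrophil receptor Cxcr2 and the platelet chemokines Pf4 and Ppbp rose, and the lymphocyte receptors Ccr6 and Ccr9 fell, with both 4T07 and 4T1 tumors. Of 50 members tested, 14 were higher and 10 lower in spleens of 4T07 mice than in those of controls, beside 8.26% and 10.3% of all genes, and 11 were higher and 5 lower in spleens of 4T1 mice, beside 9.85% and 10%. In spleens of 67NR mice 0 were higher and 3 lower, beside 1.29% and 0.97%, and of 4T1 against 4T07 spleens 2 were higher and 3 lower, beside 0.838% and 1.5%. The median log2 fold change of the members was −0.42, −0.35 and −0.23 in 67NR, 4T07 and 4T1 spleens, against 0.00, −0.09 and −0.10 for all genes. The 3 comparisons with controls share the control spleens. Leaving out 1 library at a time gave 21 to 25 calls for 4T07 and 12 to 17 for 4T1 against control.

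The neutrophil receptor Cxcr2 had 21.9, 21.7 and 21.8 CPM in control spleens, 53.1, 46.4 and 55.8 CPM with 4T07 and 163, 112 and 139 CPM with 4T1 tumors (log2 fold change 1.42 ± 0.20, edgeR adjusted p = 9.88e-05 for 4T07, and log2 fold change 2.92 ± 0.21, edgeR adjusted p = 1.15e-07 for 4T1). Its level was also higher with 4T1 than with 4T07 (log2 fold change 1.50 ± 0.20, edgeR adjusted p = 0.000485), and these 3 groups did not overlap. Cxcr1, the other receptor of this kind and its neighbour in the genome, had 1 count over the control spleens, 9 with 4T07 and 33 with 4T1, ratios to control of 8.99 (exact 95% counting interval 1.25 to 394) and 36.9 (6.18 to 1500). Ccr1, a receptor of neutrophils and monocytes, had 15.9, 7.61 and 6.25 CPM in controls and 42.0, 22.8 and 38.4 CPM with 4T1 (log2 fold change 2.03 ± 0.32, edgeR adjusted p = 0.00017). Neutrophil markers summed to 986.4 to 1729 CPM in control spleens, 25060 to 30730 CPM with 4T07 and 12610 to 32960 CPM with 4T1, and all 10 were higher in both.

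Pf4 and Ppbp, stored in platelet granules, rose together in spleens. Pf4 had 232, 207 and 163 CPM in controls, 986, 862 and 725 CPM with 4T07 and 889.8, 411 and 778 CPM with 4T1 (log2 fold change 2.05 ± 0.25, edgeR adjusted p = 1.86e-05 for 4T1). Ppbp had 231, 201 and 109 CPM in controls, 1032, 667 and 719 CPM with 4T07 and 631, 251 and 622 CPM with 4T1 (log2 fold change 2.32 ± 0.34, edgeR adjusted p = 0.000102 for 4T07, and log2 fold change 1.74 ± 0.33, edgeR adjusted p = 0.00088 for 4T1). Both tumor groups lay above the controls for both genes. The platelet and megakaryocyte markers summed to 114.7 to 150.7 CPM in controls, 396.3 to 437.5 CPM with 4T07 and 178.5 to 334.9 CPM with 4T1, and 7 and 6 of the 8 were higher. Ackr1, the chemokine-binding Duffy antigen of erythroid cells and venules, had 13.4, 13.6 and 12.3 CPM in controls, 38.9, 30.2 and 34.7 CPM with 4T07 and 43.9, 58.8 and 64.0 CPM with 4T1 (log2 fold change 2.34 ± 0.23, edgeR adjusted p = 2.18e-06 for 4T1). Ccl9, Cxcl5 and Cxcr4 were also called higher in both groups, with Ccl9, a myeloid ligand of Ccr1, at means of 8.68, 37.5 and 20.0 CPM in control, 4T07 and 4T1 spleens.

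Ccl8, Ccl12, Ccl7 and Ccl2, ligands that draw monocytes, rose in the spleens of 4T07 mice. Ccl8 had 1.17, 2.54 and 2.80 CPM in controls, 169, 118 and 81.6 CPM with 4T07 and 2.88, 4.65 and 7.77 CPM with 4T1 (log2 fold change 5.99 ± 0.38, edgeR adjusted p = 4.57e-08 for 4T07, and log2 fold change −4.48 ± 0.34, edgeR adjusted p = 1.78e-06 for 4T1 against 4T07). Ccl12 had 0.388, 0.692 and 0 CPM in controls and 16.1, 9.84 and 3.44 CPM with 4T07 (log2 fold change 4.85 ± 0.71, edgeR adjusted p = 0.000115), or 5.56 without replicate 2 of the controls, and the 4T1 spleens held 3 counts against 147 in 4T07, a ratio of 43.8 (exact 95% counting interval 14.7 to 215). Ccl7 had no counts in control spleens and 38 with 4T07, at least 12.6-fold more against the floor of 3 counts in the group, though DESeq2 gave an adjusted p of 0.207. Ccl2 had 0.583, 0.692 and 0.431 CPM in controls, 12.8, 3.45 and 0.859 CPM with 4T07 and 0.719, 1.22 and 0.229 CPM with 4T1 (log2 fold change 3.44 ± 0.74, edgeR adjusted p = 0.00279 for 4T07). Replicate 1 of the 4T07 spleens was the highest for these genes, and without it the difference in Ccl2 was 2.19 against controls, and −1.62 for 4T1 against 4T07 (edgeR adjusted p = 0.199). All 4 ligands lie in the chromosome 11 run given above, while Ccl11 in the same run averaged 0.472 and 0.195 CPM in control and 4T07 spleens and was not called.

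Ccr6, Ccr9, Cxcr6 and Cxcl12 were lower in the spleens of 4T07 and 4T1 mice. Ccr6 had 89.9, 97.8 and 107 CPM in controls, 26.4, 19.5 and 24.9 CPM with 4T07 and 22.1, 39.2 and 18.1 CPM with 4T1 (log2 fold change −1.89 ± 0.22, edgeR adjusted p = 1.71e-05 for 4T07, and log2 fold change −1.65 ± 0.22, edgeR adjusted p = 4.39e-05 for 4T1). Ccr9, a gut homing receptor, had 33.4, 43.8 and 39.0 CPM in controls, 10.5, 14.3 and 12.6 CPM with 4T07 and 13.9, 15.4 and 14.6 CPM with 4T1 (log2 fold change −1.45 ± 0.20, edgeR adjusted p = 6.79e-05 for 4T07). Cxcr6 had 14.8, 13.6 and 10.6 CPM in controls, 6.38, 4.66 and 2.29 CPM with 4T07 and 5.75, 5.88 and 2.06 CPM with 4T1, and its call with 4T1 (log2 fold change −1.27 ± 0.34, edgeR adjusted p = 0.00976) was lost without replicate 3 of the 4T1 spleens, where the difference was −0.94. Cxcl12 had 453, 408 and 326 CPM in controls, 155, 95.3 and 105 CPM with 4T07 and 136, 184 and 154 CPM with 4T1 (log2 fold change −1.58 ± 0.20, edgeR adjusted p = 2.49e-05 for 4T07), and with 4T1 the difference fell under the fold threshold without replicate 1 of the controls (−0.96) or of the 4T1 spleens (−0.98). The tumor groups lay below the controls for all 4 genes. Ccr7, Cxcr5, Ccr3, Ackr3, Ackr4 and Ccl24 were called lower with 4T07 and not with 4T1, with Cxcr5 at 18.5, 7.17 and 8.87 CPM in control, 4T07 and 4T1 spleens, and none of the 6 was called in the direct comparison of 4T1 with 4T07. Summed B cell markers were 430.2 to 499.2 CPM with 4T07 and 301.8 to 522.3 CPM with 4T1, against 1225 to 1677 CPM in controls, and T cell markers 93.1 to 105.6 and 110.4 to 126.4 CPM against 244.3 to 286.3 CPM. Their part in the receptor levels was not tested.

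The 3 members lower in 67NR spleens were Ackr4, Cxcl10 and Cxcr3. Ackr4, which clears Ccl19 and Ccl21, had 45.8, 36.2 and 20.1 CPM in controls and 7.96, 16.6 and 9.64 CPM with 67NR (log2 fold change −1.69 ± 0.36, edgeR adjusted p = 0.0201). Cxcl10 and Cxcr3 had differences of −1.25 and −1.08, and the count of 3 fell to 0 without replicate 2 of the controls or replicate 1 of the 67NR spleens. In spleens, 1 of 21 tested inducing factors was higher with 4T1, namely Il1b with means of 196.5 CPM with 4T1 and 46.6 CPM in controls, 1 was lower with 4T07, namely Lta, and 1 was lower with 67NR, namely Tnf with means of 4.18 CPM with 67NR and 8.16 CPM in controls. Of all genes, 9.85% were higher with 4T1, 10.3% lower with 4T07 and 0.97% lower with 67NR.

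**Figure D4:**
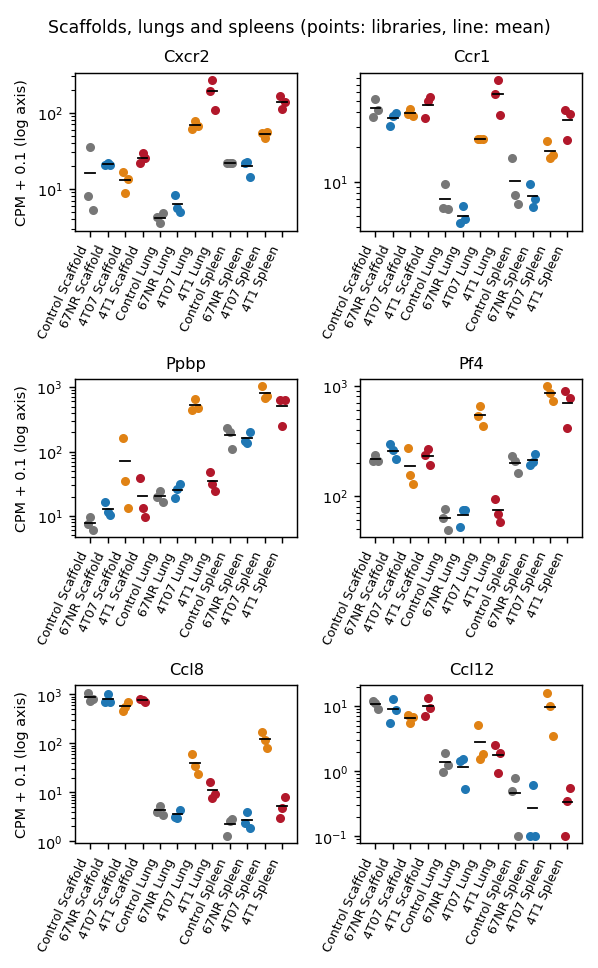
CPM + 0.1 on a log axis in each scaffold, lung and spleen library of control, 67NR, 4T07 and 4T1 mice, 3 points per group, for Cxcr2, Ccr1, Ppbp, Pf4, Ccl8 and Ccl12. The mean of Cxcr2 is highest in the lungs of 4T1 mice, where its libraries overlap with those of 4T1 spleens. Ccr1 lies above the controls in these lungs, and Ccl8 and Ccl12 lie above the controls in the spleens of 4T07 mice.

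In the lungs of 4T1 mice the receptors of neutrophils rose. Of 54 members tested, 7 were higher and 1 lower than in control lungs, beside 3.56% and 1.05% of all genes, and the median log2 fold change of the members was 0.06 (all genes 0.00). Cxcr2 had 4.18, 3.43 and 4.69 CPM in control lungs and 193, 268 and 109 CPM in lungs of 4T1 mice (log2 fold change 5.53 ± 0.29, edgeR adjusted p = 1.85e-10). Ccr1 had 5.75, 9.38 and 5.67 CPM against 58.1, 76.8 and 37.6 CPM (log2 fold change 3.07 ± 0.24, edgeR adjusted p = 3.59e-08), and Cxcr1 0.697, 0.361 and 0.971 CPM against 4.67, 5.51 and 1.65 CPM (log2 fold change 2.50 ± 0.56, edgeR adjusted p = 0.00724). None of the 3 overlapped with the controls, and they were the members called under every alternative. Neutrophil markers summed to 246.0 to 314.5 CPM in control lungs and 11820 to 28210 CPM with 4T1, with all 10 higher, whereas the B cell, T cell, NK cell, dendritic cell and macrophage lists had no called gene. The part of neutrophils in these values was not tested.

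The other calls in 4T1 lungs were smaller. Ccr2 averaged 83.0 CPM in controls and 177 CPM with 4T1 (log2 fold change 1.10 ± 0.17, edgeR adjusted p = 0.000263), a call lost without replicate 2 of the 4T1 lungs. Ccl8 had 3.84, 5.23 and 3.40 CPM in controls and 16.1, 7.48 and 9.14 CPM with 4T1 (log2 fold change 1.40 ± 0.35, edgeR adjusted p = 0.0173), a call lost without replicate 1 of the 4T1 lungs (1.01, edgeR adjusted p = 0.126). Ccr3 had 3.14, 1.62 and 1.30 CPM against 4.99, 4.38 and 5.10 CPM (log2 fold change 1.26 ± 0.29, edgeR adjusted p = 0.0102), and without replicate 3 of the controls its difference was 0.99, under the fold threshold. Cxcr5 had 3.49, 2.16 and 2.91 CPM against 5.47, 9.74 and 4.50 CPM (log2 fold change 1.21 ± 0.32, edgeR adjusted p = 0.0238), a call lost without replicate 2 of either group. Cxcl2, the member that was lower, had 1.22, 4.15 and 3.24 CPM against 1.13, 0.989 and 1.50 CPM (log2 fold change −1.22 ± 0.42, edgeR adjusted p = 0.085), and the call was lost in DESeq2 (adjusted p = 0.128) and when any 1 of 4 libraries was left out. The count of 8 fell to 5 without replicate 2 of the 4T1 lungs. Of 30 signalling genes 8 were higher and 0 lower in these lungs, and of 22 inducing factors 2 were higher and 0 lower. Of all genes, 3.56% were higher and 1.05% lower there.

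In lungs of 67NR mice 1 member was higher and 2 were lower than in controls, beside 2.52% and 1.73% of all genes, with a median of −0.07 (all genes 0.03). Cxcl13 had 8.89, 11.9 and 9.06 CPM in controls and 25.1, 29.7 and 42.4 CPM with 67NR (log2 fold change 1.61 ± 0.22, edgeR adjusted p = 0.000634). Ccl6, a ligand of Ccr1 made by myeloid cells, had 729.7, 719 and 503 CPM in controls and 312, 289 and 257 CPM with 67NR (log2 fold change −1.30 ± 0.16, edgeR adjusted p = 0.000397). Ccl17 had 5.58, 6.85 and 4.86 CPM against 2.87, 2.92 and 1.88 CPM (log2 fold change −1.28 ± 0.35, edgeR adjusted p = 0.0275), a call lost without replicate 2 of the controls or replicate 3 of the 67NR lungs. The groups did not overlap for any of the 3. The count rose to 6 without replicate 2 of the 67NR lungs and to 5 without replicate 3 of the controls. When the 3 libraries labelled 4T07 lung were left out of the fit, the counts for 67NR and 4T1 lungs remained 3 and 8.

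In the libraries labelled 4T07 lung, 19 members were higher and 11 lower than in control lungs, beside 15.3% and 13.7% of all genes, with a median of 0.51 (all genes −0.01). Of these 30, the mean of 21 lay between those of control lungs and 4T07 spleens, and that of the other 9 went in the direction of the 4T07 spleens and past them. These 30 members were picked by their difference from the same control lungs, and the positions of all called genes were not counted. The 21 and 9 are thus a description and no test of where the RNA came from. Ackr1 had 0.174, 0.902 and 1.30 CPM in control lungs, 22.4, 28.9 and 19.7 CPM in these libraries and 38.9, 30.2 and 34.7 CPM in 4T07 spleens (log2 fold change 4.92 ± 0.35, edgeR adjusted p = 6.18e-10 against control lungs). Ccr3 had 3.14, 1.62 and 1.30 CPM in control lungs and 41.1, 39.6 and 34.7 CPM in these libraries. The 6 eosinophil markers summed to 39.5 to 64.9 CPM in control lungs and 827.6 to 1180 CPM in these libraries. In spleens the receptor and the markers went opposite ways. Ccr3 averaged 110.3 CPM in control and 42.25 CPM in 4T07 spleens, and the markers summed to 44.4 to 87.6 CPM and 1379 to 1932 CPM. The part of eosinophils in the Ccr3 levels was not tested. Ppbp had 19.7, 24.2 and 16.5 CPM in control lungs against 445, 664 and 470.3 CPM in these libraries. Platelet markers were at 16.1 to 16.7 CPM against 218.7 to 315.9 CPM. The lung gene Cxcl15 had 2061, 2021 and 1796 CPM against 385, 278 and 552 CPM, and Ackr2 34.3, 30.8 and 34.5 CPM against 8.68, 5.99 and 12.2 CPM. Cxcr2 had 4.18, 3.43 and 4.69 CPM against 60.6, 76.6 and 67.5 CPM (log2 fold change 4.11 ± 0.29, edgeR adjusted p = 7.09e-10). A response of the lung to 4T07 tumors and RNA of other tissues in these libraries cannot be told apart. Between 4T1 lungs and these libraries 11 members were higher and 15 lower in 4T1, beside 11.6% and 11.9% of all genes, with a median of −0.22 (all genes 0.04).

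In scaffolds of 4T07 mice, Ccl11 and Ccl6 were lower and Ppbp was higher than in controls, and no member was called in scaffolds of 67NR or 4T1 mice. Of 54 members tested, 1 was higher and 10 lower in scaffolds of 4T07 mice than in those of controls, beside 3.85% and 3.59% of all genes, with a median log2 fold change of −0.40 (all genes 0.04). In scaffolds of 67NR mice edgeR called 0 members in either direction, beside 0% of all genes, with 1 member at an unadjusted p below 0.05 and 0 called by DESeq2. In scaffolds of 4T1 mice it called 0 members, beside 0.0135% of all genes higher and 0.00903% lower, with 10 members at an unadjusted p below 0.05 and 0 called by DESeq2. Without replicate 2 of the control scaffolds, Cxcr2 was called higher with 4T1, where the log2 fold change was 1.84 ± 0.29 (edgeR adjusted p = 0.0269), and it was the single member gained. Its level was 7.97, 35.2 and 5.20 CPM in the control scaffolds and 21.7, 29.8 and 25.5 CPM with 4T1, values chosen for display after they were seen. The medians of the members were −0.03 and −0.18 (all genes 0.01 in both). Between 4T1 and 4T07 scaffolds 2 members were higher and 1 lower in 4T1, beside 0.636% and 0.366% of all genes, with a median of 0.26 (all genes −0.02).

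Ccl11 had 42.0, 24.4 and 22.5 CPM in control scaffolds, 13.5, 25.8 and 32.1 CPM with 67NR, 3.67, 5.11 and 7.92 CPM with 4T07 and 11.9, 54.1 and 17.4 CPM with 4T1 (log2 fold change −2.57 ± 0.50, edgeR adjusted p = 0.00368 for 4T07 against control). All 4T07 scaffolds lay below the other groups. Ccl6 had 1134, 1017 and 909.7 CPM in controls and 438, 419 and 506 CPM with 4T07 (log2 fold change −1.32 ± 0.18, edgeR adjusted p = 0.000655). Ccl11, Ccl6 and Ppbp were the 3 of 11 calls that held under every alternative. Ppbp had 7.34, 9.50 and 5.98 CPM in controls and 164, 35.2 and 13.1 CPM with 4T07 (log2 fold change 3.06 ± 0.69, edgeR adjusted p = 0.0092), and without replicate 1 of the 4T07 scaffolds, the difference was 1.54 (edgeR adjusted p = 0.0611). That library had 162.9 CPM of summed platelet markers against 118.9 and 105.2 CPM in the other two and 72.6 to 88.3 CPM in controls, and the part of platelets was not tested.

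Calls for Cxcl2, Cxcl1 and Ccl4 in scaffolds of 4T07 mice turned on single libraries. Cxcl2 had 78.9, 697 and 53.4 CPM in control scaffolds, 409, 477 and 526 CPM with 67NR, 21.4, 50.1 and 54.5 CPM with 4T07 and 72.2, 574 and 106 CPM with 4T1 (log2 fold change −2.84 ± 0.83, edgeR adjusted p = 0.0346 for 4T07 against control). A single library was high in the control group and another in the 4T1 group, whereas all 67NR scaffolds lay between 409 and 526 CPM. Without replicate 2 of the controls the difference was −0.82 for Cxcl2 (edgeR adjusted p = 0.476), −0.42 for Cxcl1 (0.578) and −0.66 for Ccl4 (0.438), and all 3 calls were lost. Cxcl5 was not called with 4T07 (log2 fold change −0.80 ± 0.53, edgeR adjusted p = 0.381). The count of 11 fell to 7 without that library or without replicate 2 of the 4T07 scaffolds, and to 8 without replicate 1 of the 4T07 scaffolds. The 3 calls between 4T1 and 4T07 scaffolds, Cxcl3, Ccl11 and Cxcl9, were each lost in a fit of only these groups. Ccl17 had 3.36, 1.27 and 2.20 CPM in controls and 0.979, 0.786 and 0.932 CPM with 4T07 (log2 fold change −1.43 ± 0.49, edgeR adjusted p = 0.0701), a call lost when any 1 of 5 libraries was left out. Ccr7, which directs dendritic cells to lymph nodes, averaged 4.69 CPM in controls and 2.06 CPM with 4T07 (log2 fold change −1.27 ± 0.41, edgeR adjusted p = 0.0528), a call lost when any 1 of 3 libraries was left out. Of 30 signalling genes 2 were higher and 2 lower with 4T07, and of 21 inducing factors 0 were higher and 2 lower. Of all genes, 3.85% were higher and 3.59% lower with 4T07.

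Whether the response to 4T1 tumors differed between tissues was tested as a difference of log2(4T1/control) in a fit of 36 scaffold, lung and spleen libraries. Of 56 members, 5 differed between scaffold and lung, beside 1.05% of all genes, and 14 each between scaffold and spleen and between lung and spleen, beside 15.2% and 16.8%. Cxcr2 differed in all 3 pairs: scaffold minus lung was −4.96 ± 0.54, edgeR adjusted p = 2.58e-07, scaffold minus spleen was −2.37 ± 0.50, edgeR adjusted p = 0.00146, and lung minus spleen was 2.60 ± 0.53, edgeR adjusted p = 0.00112. The order of its response was thus lung, spleen and scaffold. Without replicate 2 of the control scaffolds the first of these differences was −3.66 and the second −1.07 (edgeR adjusted p = 0.0873). Ccr1 followed the same order, with −3.07 ± 0.38, edgeR adjusted p = 2.2e-06 for scaffold minus lung, but its difference between lung and spleen was lost when any 1 of 6 libraries was left out. Ccr3 was called higher in lungs and not in spleens, and lung minus spleen was 2.01 ± 0.33, edgeR adjusted p = 0.000113. Pf4 and Ackr1 responded more in the spleen, and scaffold minus spleen was −2.07 ± 0.35, edgeR adjusted p = 0.000147 for Pf4 and −2.76 ± 0.45, edgeR adjusted p = 8.87e-05 for Ackr1. Cxcl12 was called lower in the spleen alone among the 3 tissues, and lung minus spleen was 1.20 ± 0.24, edgeR adjusted p = 0.000853. Of the 5, 14 and 14 differences, 2, 9 and 11 were kept whichever single control or 4T1 library was left out. Those kept between scaffold and lung were Cxcr2 and Ccr1. Without the libraries labelled 4T07 lung in the fit, 5 members differed between scaffold and lung and 13 between lung and spleen.

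**Figure D5:**
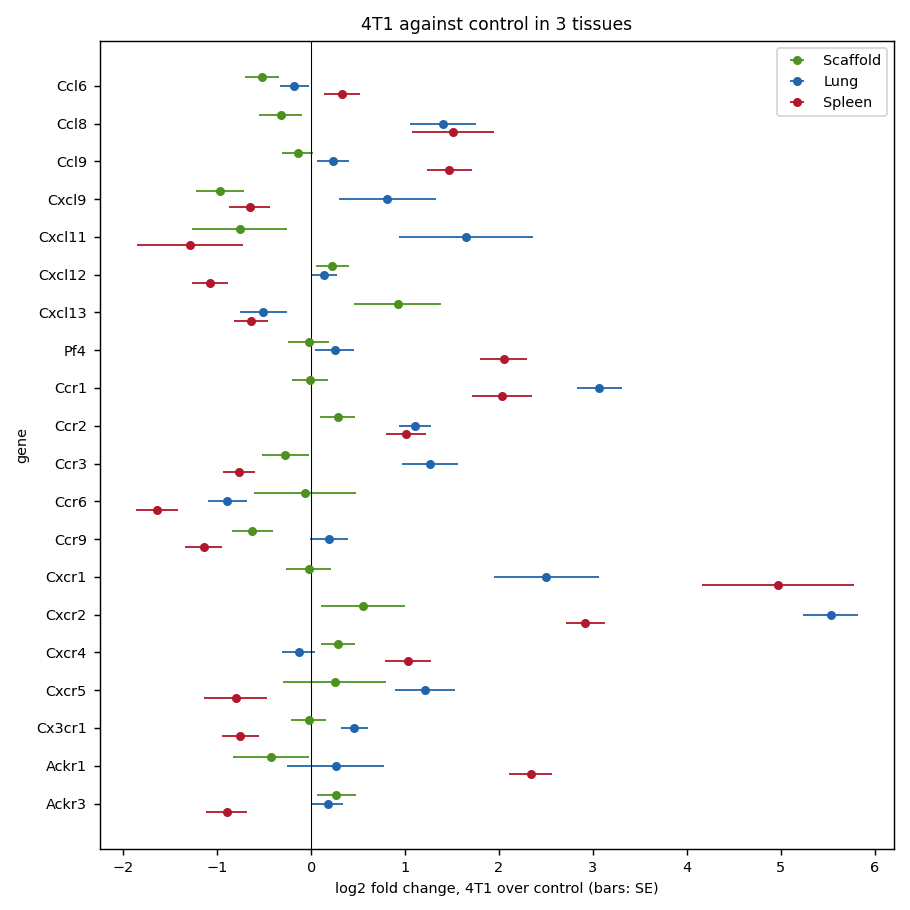
Log2(4T1/control) with its SE from edgeR in scaffolds, lungs and spleens, 1 row for each of the 20 members whose response differed between at least 1 pair of tissues. Cxcr2, Ccr1 and Cxcr1 lie to the right in lungs and spleens, with values above 2, and Ccr1 and Cxcr1 lie close to 0 in scaffolds, and Ccr6, Ccr9 and Cxcl12 lie to the left in spleens.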

How the data were processed

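Libraries tagging the 3′ end of transcripts were made from 45 samples, as 15 groups of 3. The authors deposited raw counts per gene symbol for each library. Their processing notes name Trim Galore 0.5.0, STAR 2.6.0 and featureCounts, while the genome build, annotation, strand setting and use of molecular identifiers are not given in the sources used here. Repeated symbols were summed. Total counts per library ranged from 3491888 to 8175380, which leaves members below a few CPM with few counts. Counting intervals cover counting error only. Of 45 pairs of libraries within groups, 0 were identical.

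CPM is a count divided by its library total and multiplied by 1000000. TMM factors enter the fold changes but not the CPM. Genes with more than 10 counts over the libraries of a fit were tested with the quasi-likelihood F test of edgeR 4.0.16 in R 4.3.3, in 1 fit per tissue with all of its groups and 1 for the control tissues. P-values were adjusted by Benjamini-Hochberg over all genes tested. Calls needed a fold change over 2 and an adjusted p below 0.05 (tumors, control tissues) or 0.10 (scaffolds, lungs, spleens). Differences between tissues in the response to 4T1 were tested as interactions over 36 libraries at an adjusted p below 0.10, with no fold limit. An exact permutation test of 3 against 3 libraries cannot go below 0.1. Alternatives were DESeq2 1.42.0, its size factors in edgeR, other count filters, fits of only the compared groups and leaving out each library. Both tools were tested on simulated data, where edgeR recovered 85.5% to 98.5% and DESeq2 93% to 98.5% of changed genes. Recovery of members with few counts, or with a fold change near the limit of 2, was not tested.

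Any member could be named with group means. Values by library were given for up to 6 called members per direction with the largest fold change and a mean of at least 2 CPM in the higher group, and exceptions are stated. Genes outside the family were counted over lists, with examples. The members and lists were chosen with earlier results of these data known. The values of some genes are not reported here, though counts and sums over the family and lists include them.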

Additional observations from a re-analysis of the deposited data

Results flagged for a closer look

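Each result here is a difference between 2 tissues in the log2 ratio of 4T1 to control mice, by edgeR's interaction test at an adjusted p below 0.10. The tissues of an interaction share no libraries, and each tissue serves in 2 of the 3 pairs.

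The 5 differences between scaffold and lung (scaffold minus lung) were −1.70 for Ccl8, −3.07 for Ccr1, −1.51 for Ccr3, −2.51 for Cxcr1 and −4.96 for Cxcr2. The negative sign of all 5 says that the ratio was lower in scaffolds. Cxcr2, Ccr1 and Cxcr1 are receptors of neutrophils and other myeloid cells.

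The 14 differences between scaffold and spleen (scaffold minus spleen) were −2.76 for Ackr1, 1.17 for Ackr3, −0.85 for Ccl6, −1.84 for Ccl8, −1.62 for Ccl9, −2.04 for Ccr1, −0.73 for Ccr2, 1.61 for Ccr6, 0.74 for Cx3cr1, 1.30 for Cxcl12, 1.56 for Cxcl13, −5.09 for Cxcr1, −2.37 for Cxcr2 and −2.07 for Pf4. The receptors Ccr1, Ccr2, Cxcr1 and Cxcr2 and also Pf4 and Ackr1 had the lower ratio in scaffolds. By contrast, the B cell chemokine Cxcl13, the chemokine receptor Ccr6 and the stromal ligand Cxcl12 had the lower ratio in spleens.

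The 14 differences between lung and spleen (lung minus spleen) were −2.10 for Ackr1, 1.06 for Ackr3, −1.26 for Ccl9, 1.02 for Ccr1, 2.01 for Ccr3, 1.31 for Ccr9, 1.19 for Cx3cr1, 2.91 for Cxcl11, 1.20 for Cxcl12, 1.45 for Cxcl9, 2.60 for Cxcr2, −1.18 for Cxcr4, 2.00 for Cxcr5 and −1.82 for Pf4. Pf4, Ackr1, Ccl9 and Cxcr4 had the higher ratio in spleens and the other 10 the higher ratio in lungs. Neutrophil markers differed between 4T1 and control mice in lungs and spleens, and platelet and lymphocyte markers in spleens, as given above. In scaffolds the neutrophil markers summed to 2754 to 3848 CPM with 4T1 and 756.6 to 2370 CPM in controls. The part of these markers in the differences between tissues was not tested.

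Some of these differences passed the threshold no longer when a single control or 4T1 library was left out: Ccl8, Ccr3 and Cxcr1 between scaffold and lung, Ccl8, Ccr2, Ccr6, Cx3cr1 and Cxcl13 between scaffold and spleen, and Ackr1, Ccr1 and Cxcl9 between lung and spleen. Cxcl13 went from 1.56 to 0.70 without replicate 2 of the 4T1 scaffolds. Some kept differences rested on few counts. Cxcr1 between scaffold and spleen (−5.09 ± 0.91) had 1 count over the control spleens, and was −7.11 without replicate 2 of these spleens. Cxcl11 between lung and spleen (2.91 ± 0.94) had at most 2 counts in any control lung library.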

How the results depend on the processing

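Of the calls, 19 of 25, 12 of 16 and 14 of 17 in tumors (4T07 and 4T1 against 67NR, then 4T1 against 4T07) were kept under every alternative that tested them. In scaffolds 3 of 11 were kept for 4T07 against control and 0 of 3 for 4T1 against 4T07, and in spleens 0 of 3, 17 of 24 and 9 of 16 for 67NR, 4T07 and 4T1 against control. In lungs 2 of 3, 24 of 30 and 3 of 8 were kept in the same order. Of 4T1 against 4T07, 20 of 26 were kept in lungs and 3 of 5 in spleens, and between control tissues 33 of 36, 33 of 37 and 30 of 37. No call changed direction. DESeq2 gave no adjusted p for some members, which were not counted as lost. With no count filter, 2 members were called for 4T1 against control scaffolds and 10 for 4T1 against 4T07 scaffolds, and in a fit of only the compared groups the latter was 0. With the filterByExpr filter, 3 were called for 4T1 against 4T07 spleens. The cause was not tested. Leaving out 1 library gave 7 to 12 calls for 4T07 and 0 to 1 for 4T1 against control scaffolds, 0 to 2 for 4T1 against 4T07 scaffolds, 2 to 6 for 67NR and 5 to 9 for 4T1 against control lungs, 0 to 3 for 67NR against control spleens, 3 to 6 for 4T1 against 4T07 spleens, 14 to 18 for 4T1 against 4T07 tumors, 26 to 30 for 4T07 against control lungs, 22 to 28 for 4T1 against 4T07 lungs, 32 to 38 between control tissues and 3 to 5 for the difference between scaffold and lung. The last was 3 without replicate 2 or 3 of the control lungs. Leaving out single libraries from the tests between tissues, and leaving out the libraries labelled 4T07 lung, were chosen after seeing the data. Of the values of named members, 1440 kept their call and 76 lost it. No paired analysis was possible because the labels do not link the tissues of a mouse and the replicate numbers follow sample order only. At a few counts behind 1 CPM, the values of rare ligands and receptors are imprecise.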
